A study of Mus musculus with 15 samples.

Results

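The Myc transcription factor network was followed through 8 genes, picked by a rule that names the genes and sets no threshold on their values: Myc, Mycn, Mycl, Max, Mxd1, Mxd4, Mxi1 and Mnt. All 8 were found among the 36528 genes listed, by matching NCBI gene identifiers to mouse symbols, and all 8 were among the 17282 genes kept by the filter on low counts. In tumour nests left after vismodegib, the Myc paralogs called different from untreated nests were Mycl and Mycn. Mycl was 6.46-fold higher than in Ki67-positive nests and 7.43-fold higher than in Ki67-negative nests, and Mycn was 2.28-fold lower than in Ki67-positive nests, a call that leaving out any of 6 single libraries ends. Against Ki67-negative nests Mycn was not called (edgeR adjusted p = 0.0567) and the groups overlapped. Myc itself and Max were not called different in any comparison.

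Proteins of this network are basic helix-loop-helix leucine zipper factors that bind DNA as dimers with Max, mostly at the E-box CACGTG. Dimers of Max with Myc, Mycn (N-Myc) or Mycl (L-Myc) recruit acetyltransferase complexes and raise transcription of genes for ribosome assembly, metabolism and entry into the cell cycle, whereas dimers with Mxd1, Mxd4, Mxi1 or Mnt recruit the Sin3 co-repressor to the same sites. In skin, Myc is known for driving epidermal stem cells out of their niche into proliferation and differentiation. Mxd1 is known there from differentiating epidermal layers. Mycn is a known target of Hedgehog signalling in other tissues, and Mycl is known from dendritic cells.

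The libraries came from basal cell carcinoma nests cut by laser from frozen mouse skin. All mice, controls included, carried K14Cre-ER (a tamoxifen-inducible Cre under the keratin 14 promoter, so that deletion is limited to keratin 14-expressing epithelium and its progeny), Ptch1fl/fl and p53fl/fl, and the genotype labels add Lgr5GFP. Residual nests after 28 days of vismodegib, an inhibitor of the Hedgehog transducer Smoothened, gave 5 libraries. Untreated nests labelled Ki67-positive gave 5, and untreated nests labelled Ki67-negative gave 5. The labels give no age and tie no library to an animal, so several nests may stem from 1 mouse. If so, the p-values are smaller than they should be, and they measure only the spread between these libraries, some of which may be technical. The Ki67-negative group was given accession numbers later than those of the other 10 libraries. A batch of its own, if there was one, cannot be told apart from the group.

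Sequences around motifs near the start sites are shown because they hold the letters that network proteins or upstream regulators are known to read. RefSeq (GRCm38.p6) gives promoter windows of 300 bases, 250 before the start site and 50 after it, for 7 of the 8 members. Each window was searched on both strands for the E-box CACGTG and the Gli core TGGGTGGTC, and, chosen after the windows were seen, for the E2F-type letters TTTGGCGC and the shortened Gli core GGGTGGTC, which lies inside the longer one. Of 32851 windows of this length over all genes, 7.15% held the E-box, 0.253% the Gli core, 0.514% the E2F-type letters and 0.807% the shortened Gli core. The E-box was found near Max, Mxd4 and Mnt. Mycn held the E2F-type letters at −183 and again at −168, Mycl held the shortened Gli core in reverse complement at −53, and neither held the E-box or the full Gli core. Distances are counted from the RefSeq start. The Mycl match lies inside the gene as GENCODE annotates it, which starts at chr4:122995652. Windows of Mxd1 and Mxi1 held none of the 4 motifs. The stretches follow, 5′ to 3′ on the gene's strand, with the motifs in capitals. A match is a description of letters only.
Mycn, the part of its window upstream of both the RefSeq and the GENCODE start, chr12:12941915-12942086, minus strand: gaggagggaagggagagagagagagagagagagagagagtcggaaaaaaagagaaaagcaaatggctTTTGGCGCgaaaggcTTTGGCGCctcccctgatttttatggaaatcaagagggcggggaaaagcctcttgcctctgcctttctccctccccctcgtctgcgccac
Mycl, chr4:122995867-122995896, plus strand: tgtctcctaggGACCACCCcccctcctggt
Max, E-box at −3, chr12:76962234-76962263, minus strand: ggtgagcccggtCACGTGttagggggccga
Mxd4, E-box at −219, chr5:34187912-34187941, minus strand: gggctgggccacCACGTGctgttgctaagc
Mnt, E-box at −123, chr11:74830789-74830818, plus strand: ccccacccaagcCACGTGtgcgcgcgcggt

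In the GENCODE M21 annotation of GRCm38, Myc (NCBI gene 17869) lies at chr15:61985391-61990374 on the plus strand, Mycn (18109) at chr12:12936093-12941914 on the minus strand and Mycl (16918) at chr4:122995652-123002485 on the plus strand. Max (17187) lies at chr12:76937269-76962201 on the minus strand. Mxd1 (17119) at chr6:86647042-86669161 and Mxd4 (17122) at chr5:34173883-34187720 are on the minus strand, and Mxi1 (17859) at chr19:53310518-53375810 and Mnt (17428) at chr11:74830920-74845725 on the plus strand. Myc, Mycn, Mycl and Mnt overlap no other annotated gene. Whether strand was used in counting is not given in the sources used here, so reads of Mxd4 and of the antisense gene Gm42846, which share 514 of the 8483 exon bases of Mxd4, cannot be told apart, nor can those of Mxi1 and Gm10197 over 194 of 6823 exon bases.

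Library totals ran from 4887381 to 10328822 counts. Levels are given in CPM, counts scaled to a common library size with TMM factors. Summed CPM of 6 markers of basal tumour keratinocytes (Krt14, Krt5, Krt17, Epcam, Sox9 and Trp63) was 9210 to 12400 after vismodegib, 7020 to 8210 in Ki67-positive and 4980 to 8480 in Ki67-negative libraries, and none of the 6 was at 0 in any library. The higher sum comes from Krt5 and Krt14, which rose in both comparisons (log2 fold change 0.79 and 1.40 against Ki67-positive nests), whereas Sox9 fell in both (−0.97 against Ki67-positive nests) and Krt17 fell against Ki67-positive nests (−0.66). Mki67, which encodes Ki67, ranged from 587 to 1150 CPM in the positive group, from 234 to 408 CPM in the negative group, and from 489 to 847 CPM in the vismodegib libraries, which carry no Ki67 label. Replicate 5 of the Ki67-negative group stands apart, with 19669 genes detected against 21653 to 23322 in the other 14 libraries. Its effect on the members is given where it changes a call.

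Among all genes tested, 26.0% were called (edgeR adjusted p under 0.05) between vismodegib and Ki67-positive nests, 12.6% higher and 13.4% lower. Of the 8 members, Mycl was called higher and Mycn lower, which is 2 of 8 and so near that background. Between vismodegib and Ki67-negative nests 31.9% of genes were called, 15.4% higher and 16.5% lower, and Mycl and Mxi1 were the 2 members called, both higher. The comparisons share the vismodegib libraries. The median log2 fold change over the 8 members was 0.24 and 0.15, beside −0.02 and −0.03 over all genes. Vismodegib libraries lay wholly above Ki67-positive ones for Mycl and wholly below for Mycn, as they did for 10.2% and 10.1% of all genes (20.3% together). Against Ki67-negative libraries Mycl alone of the members was apart, lying above, as were 10.4% of all genes (20.5% in either direction).

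**Figure D1:**
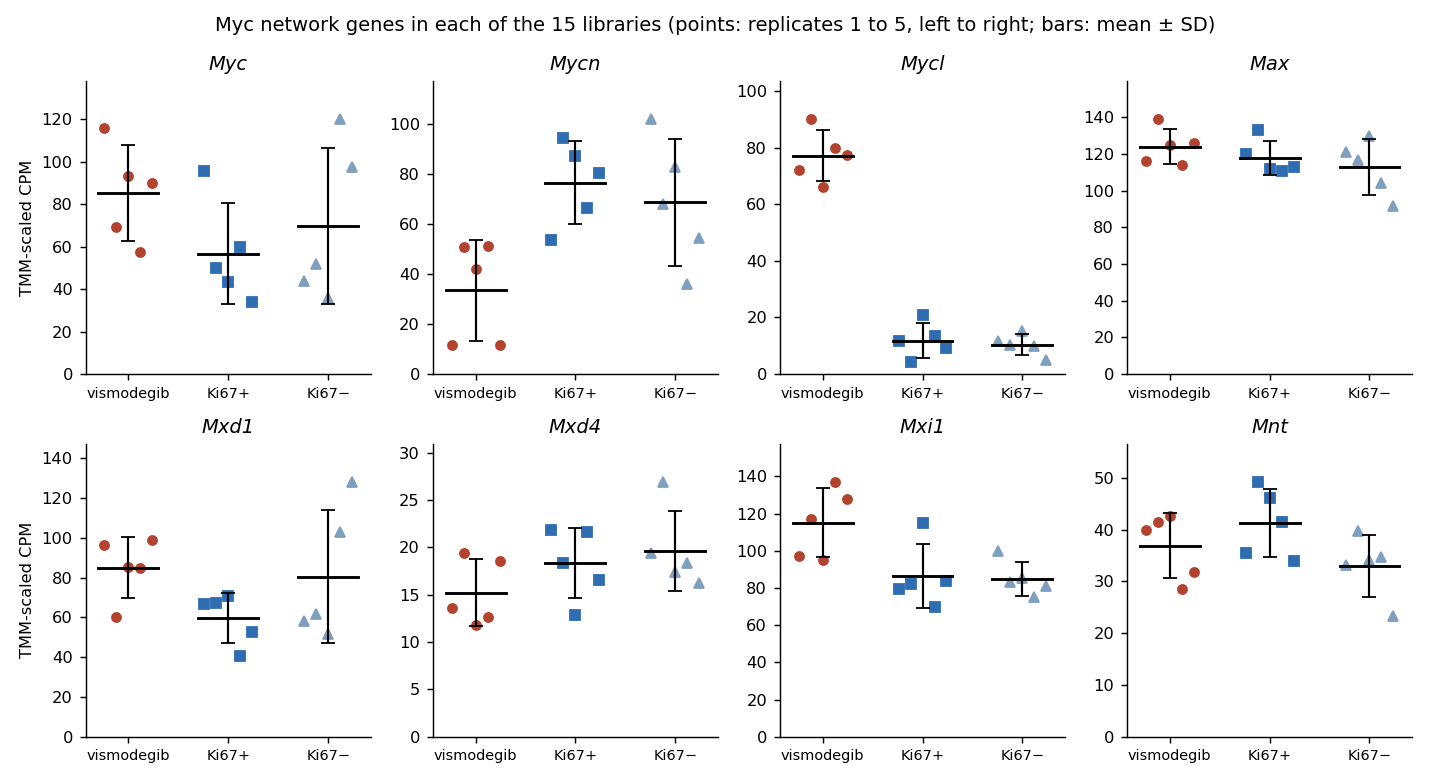
CPM (TMM-scaled) of the 8 network genes (vertical axes, each starting at 0) in the 5 vismodegib (circles), 5 Ki67-positive (squares) and 5 Ki67-negative (triangles) libraries, with bars for the mean ± SD. Mycl sits at 66.0 to 90.0 CPM after vismodegib and at 4.18 to 20.8 CPM in the untreated libraries, while Max stays between 91.6 and 139 CPM throughout.

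Mycl, which encodes L-Myc, was the member with the largest difference. Its levels were 72.1, 90.0, 66.0, 80.0 and 77.3 CPM in vismodegib replicates 1 to 5. In Ki67-positive replicates it was 11.7, 4.18, 20.8, 13.3 and 9.1 CPM, and in Ki67-negative replicates 11.6, 10.3, 15.3, 9.8 and 4.94 CPM. Every vismodegib library lay above every untreated one, and the untreated groups overlapped. These levels rest on 468 to 667 reads per vismodegib library and on 26 to 175 reads per untreated library. Group means were 77.1 ± 8.97, 11.8 ± 6.09 and 10.4 ± 3.75 CPM (SD, n = 5 each). The log2 fold change was 2.69 (95% interval 1.99 to 3.4, edgeR adjusted p = 9.96e-06) against Ki67-positive and 2.89 (2.18 to 3.61, edgeR adjusted p = 4.61e-06) against Ki67-negative nests. Ranked by fold change over all 17282 genes, Mycl stood at place 350 and at place 310 from the top, within the highest 2.03% and 1.79%. More cells of a type and more RNA per cell cannot be told apart in such nests.

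Markers of suprabasal epidermis and of Langerhans and dendritic cells moved with Mycl. The counts below stand beside 12.6% of all genes called higher against Ki67-positive and 15.4% against Ki67-negative nests. All 8 suprabasal markers (Krt1, Krt10, Lor, Ivl, Flg, Krt77, Sbsn and Krtdap) were called higher in both comparisons, and their summed level was 3880 to 5300 CPM after vismodegib, 215 to 834 CPM in the Ki67-positive group and 149 to 772 CPM in the Ki67-negative group. Of 6 Langerhans and dendritic cell markers (Cd207, H2-Aa, H2-Ab1, Cd74, Itgax and Flt3), 6 were called higher against Ki67-positive and 4 against Ki67-negative nests. Their sum was 710 to 2130 CPM after vismodegib, 69.1 to 432 CPM in the positive group and 115 to 424 CPM in the negative group, where Cd207 (langerin) and Flt3 were at 0 in replicate 3. Within each group the highest Mycl and the highest marker sums fell in different libraries. With 5 libraries per group, that order and the libraries named next are a description only. Vismodegib replicate 2 had the highest Mycl of its group (90.0 CPM) and the lowest suprabasal sum (3880 CPM). Ki67-negative replicate 3 likewise had the highest Mycl of its group (15.3 CPM) and the lowest suprabasal sum (149 CPM). The vismodegib library with the lowest Langerhans sum, replicate 4 (710 CPM), held 80.0 CPM of Mycl, and replicate 3, with 1860 CPM, held 66.0 CPM. Among untreated libraries Ki67-positive replicate 3 had the highest Mycl (20.8 CPM) and the lowest Langerhans sum (69.1 CPM), while Ki67-positive replicate 5 had the highest Langerhans sum (432 CPM) and 9.1 CPM of Mycl. T cell markers were also higher, 4 of 5 called in each comparison, with sums of 33.8 to 99.4 CPM after vismodegib, 10.9 to 33.0 CPM in the positive and 7.1 to 44.4 CPM in the negative group. The part of these cells in the Mycl difference was not tested.

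**Figure D2:**
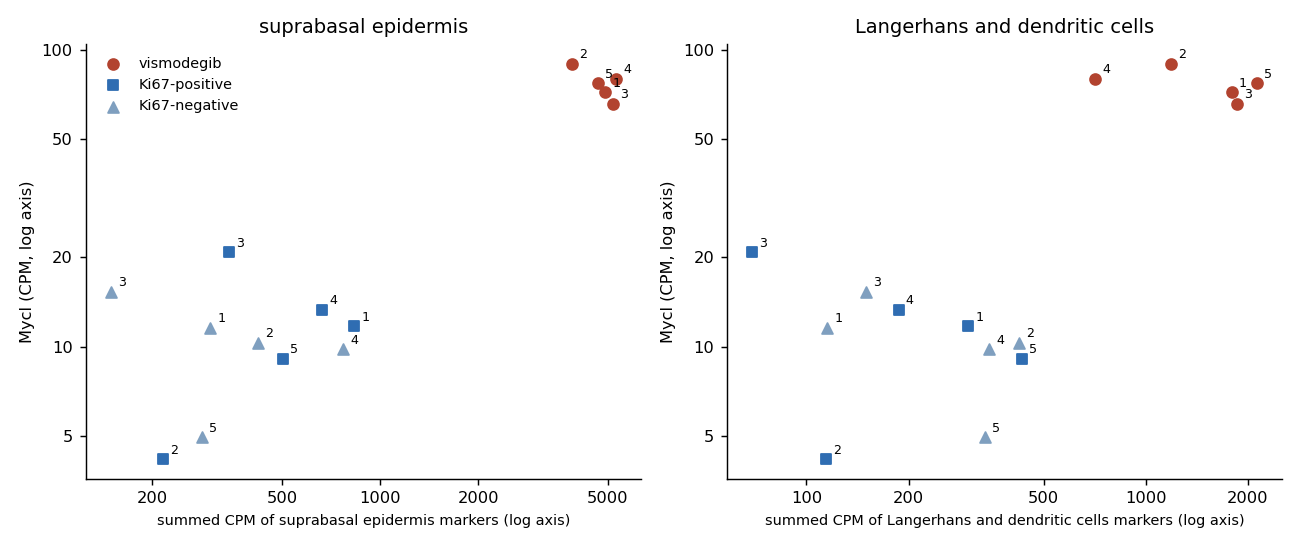
Mycl (vertical, CPM on a log axis) against the summed CPM of 8 suprabasal markers (left) and of 6 Langerhans and dendritic cell markers (right), both on log axes, with 1 point per library labelled by replicate number. Vismodegib libraries form a cloud of their own at 66.0 to 90.0 CPM of Mycl, and within each group the library highest in Mycl is not the one highest in either sum.

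Mycn was the paralog that was lower after vismodegib. Its levels were 11.7, 50.9, 41.9, 51.3 and 11.8 CPM in vismodegib replicates 1 to 5, with replicates 1 and 5 far below the other 3. Ki67-positive replicates held 53.7, 94.7, 87.4, 66.5 and 80.5 CPM, and Ki67-negative replicates 102, 68.1, 83.0, 36.2 and 54.6 CPM. All vismodegib libraries lay below all Ki67-positive ones, but they overlapped the Ki67-negative group, in which replicate 4 was lowest. Group means were 33.5 ± 20.2, 76.6 ± 16.5 and 68.8 ± 25.4 CPM (SD, n = 5 each). The log2 fold change against Ki67-positive nests was −1.19 (95% interval −2.05 to −0.33, edgeR adjusted p = 0.0365). Against Ki67-negative nests it was −1.03 (−1.9 to −0.17), which missed the threshold (edgeR adjusted p = 0.0567). The first call is close to its threshold. It was lost without vismodegib replicate 1 or 5 (log2 fold change −0.97 each, edgeR adjusted p = 0.066 and 0.0652) and without Ki67-positive replicate 2, 3, 4 or 5 (edgeR adjusted p = 0.0843, 0.0704, 0.0521 and 0.0644). The second was called without vismodegib replicate 2 or 4 or Ki67-negative replicate 4 (edgeR adjusted p = 0.0365, 0.0389 and 0.0298).

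Genes of the Hedgehog pathway, upstream of Mycn in other tissues, were lower in the same libraries. Of 7 (Gli1, Ptch1, Hhip, Gli2, Gli3, Smo and Sufu), 6 fell in both comparisons, with a median log2 fold change of −1.28 and −1.67. Over all genes 13.4% and 16.5% were called lower, with medians of −0.02 and −0.03. Smo, the drug's target, was not called (−0.35 and −0.41, edgeR adjusted p = 0.127 and 0.0654). Ptch1, the Hedgehog receptor and itself a pathway target, was 148, 876, 664, 923 and 142 CPM in vismodegib replicates 1 to 5, so that replicates 1 and 5 were lowest for Ptch1 as for Mycn. Its transcripts were counted over the whole gene, floxed part included, and its level checks no label. Untreated libraries held 2050 to 3760 CPM of Ptch1. Per 100 counts of Ptch1 there were 5.56 to 8.28 counts of Mycn after vismodegib, 2.2 to 3.09 in Ki67-positive and 1.63 to 2.74 in Ki67-negative libraries, so that the vismodegib libraries were highest in this ratio. It was computed after the values were seen and was not tested. Gli1, the pathway's transcriptional activator, was 28.8 and 21.0 CPM in vismodegib replicates 1 and 5 and 89.6 to 126 CPM in the other 3. Over the 10 untreated libraries Pearson's r of log2 CPM with Mycn was 0.27 for Gli1 and 0.8 for Ptch1, which was not tested. The untreated library highest in Gli1, Ki67-negative replicate 5 (585 CPM), held 54.6 CPM of Mycn. The lowest, Ki67-positive replicate 3 (223 CPM), held 87.4 CPM of Mycn.

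Some markers of other cell types were lower beside Mycn as well. Among all genes, 13.4% were called lower against Ki67-positive and 16.5% against Ki67-negative nests. Of 5 melanocyte markers (Pmel, Dct, Tyr, Tyrp1 and Mlana), 4 fell against Ki67-positive and 3 against Ki67-negative nests, and their sum was 54.6 to 322 CPM after vismodegib, 294 to 1460 CPM in the positive group and 151 to 1140 CPM in the negative group. The library lowest in melanocyte markers was also the lowest in Mycn in each group: vismodegib replicate 1 (54.6 CPM of markers), Ki67-positive replicate 1 (294 CPM) and Ki67-negative replicate 4 (151 CPM). The order did not hold throughout. Ki67-positive replicate 4 was highest of its group in these markers (1460 CPM) and held 66.5 CPM of Mycn. Vismodegib replicates 5 and 2 held 150 and 163 CPM of markers beside 11.8 and 50.9 CPM of Mycn. Summed Hedgehog genes were also lowest in Ki67-positive replicate 1 (3650 CPM) and Ki67-negative replicate 4 (3340 CPM). Vismodegib replicate 1 held 420 CPM of them, beside 414 CPM in replicate 5. Ki67-positive replicate 1 and Ki67-negative replicate 4 were also highest of their groups in markers of some other cell types, given below beside Myc. No melanocyte marker was at 0 in any library. Of 5 pericyte and smooth muscle markers (Rgs5, Pdgfrb, Acta2, Tagln and Myh11), 3 fell in each comparison, with sums of 36.2 to 53.8 CPM after vismodegib against 61.3 to 126 and 78.9 to 147 CPM. Of 6 fibroblast markers, 1 fell in each comparison, which is near the share of all genes. The part of these cells in the Mycn difference was not tested.

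Myc, the founding paralog, spread widely within each group. Its levels were 116, 69.1, 93.3, 57.6 and 90.1 CPM in vismodegib replicates 1 to 5, 95.7, 49.8, 43.5, 60.0 and 34.0 CPM in Ki67-positive replicates, and 43.9, 51.8, 35.9, 120 and 97.4 CPM in Ki67-negative replicates. High libraries occurred in every group and all 3 groups overlapped. Means were 85.2 ± 22.7, 56.6 ± 23.8 and 69.7 ± 36.7 CPM (SD, n = 5 each). The log2 fold change was 0.59 against Ki67-positive nests (95% interval −0.13 to 1.31, edgeR adjusted p = 0.207) and 0.29 against Ki67-negative nests (−0.43 to 1.0, edgeR adjusted p = 0.535). The upper ends of these intervals leave room for a rise that this depth and spread could not show.

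Libraries rich in Myc were poor in Mycn. Over the 10 untreated libraries Pearson's r of log2 CPM was −0.88 (two-sided permutation p = 0.00056, and 0.0157 adjusted over the 28 pairs of members) and Spearman's rho was −0.76 (permutation p = 0.0143, adjusted 0.134). Without Ki67-negative replicates 4 and 5, the 2 libraries farthest from the median of Myc, r was −0.75. Leaving out each untreated library in turn gave r of −0.91 to −0.82. With deviations from the group means over all 15 libraries r was −0.67. Neither untreated group alone holds enough libraries for an r of its own. Among 11575 genes with a mean log2 CPM of at least 3, Mycn ranked 6 from the most negative against Myc over the untreated libraries, and 230 by deviations over all 15. The pair was singled out after its values were seen, libraries share their sum of counts, and no other pair among the 28 passed adjustment. The libraries highest in Myc in each group (vismodegib replicate 1, Ki67-positive replicate 1 and Ki67-negative replicate 4) were also the lowest in melanocyte markers. The 2 untreated ones were lowest of their groups in summed Hedgehog genes too (3650 and 3340 CPM). Vismodegib replicate 1 held 420 CPM of these, beside 414 CPM in replicate 5. Ki67-positive replicate 1 and Ki67-negative replicate 4 were also highest of their groups in summed markers of some other cell types. These were suprabasal (834 and 772 CPM), T cell (33.0 and 44.4 CPM), macrophage (101 and 147 CPM) and endothelial markers (45.0 and 65.7 CPM). Vismodegib replicate 1 was highest of its group in none of them. The part of these cell types, of melanocytes or of Hedgehog signalling in the relation was not tested.

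**Figure D3:**
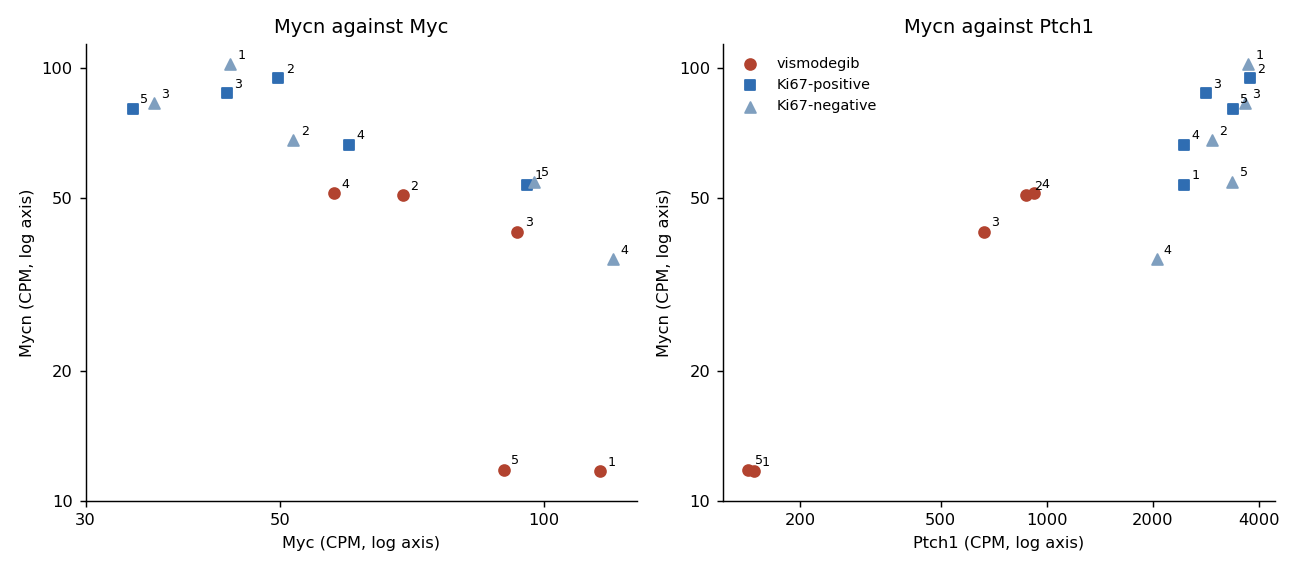
Mycn (vertical, CPM) against Myc (left) and against Ptch1 (right), on log axes, with 1 point per library labelled by replicate number. Mycn is low where Myc is high among untreated libraries, and vismodegib replicates 1 and 5 lie lowest for both Mycn (11.7 and 11.8 CPM) and Ptch1 (148 and 142 CPM).

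Levels per transcript length, for which the deposited RPKM values (reads per kilobase of transcript, scaled to library size) were used, let the paralogs be summed. Summed RPKM of Myc, Mycn and Mycl was 18.6 ± 1.23 after vismodegib, 15.5 ± 1.6 in Ki67-positive and 16.2 ± 1.94 in Ki67-negative libraries (SD, n = 5 each), with ranges of 16.8 to 19.6, 13.3 to 17.5 and 13.9 to 18.2 that overlap. The makeup of the sum differed. Mycl made up 28.9 ± 4.09% of it after vismodegib (23.4 to 32.1%), against 5.37 ± 2.7% and 4.7 ± 2.08% in the untreated groups (SD, n = 5 each), whose highest library reached 9.25%. Mycn made up 18.9 ± 11.4% after vismodegib, against 53.4 ± 13.5% and 46.9 ± 19.1%. Myc made up 52.2 ± 13.1%, 41.3 ± 13.6% and 48.4 ± 20.6%. Myc was the highest of the 3 in 5 of 5 vismodegib libraries, while Mycn was highest in 4 of 5 Ki67-positive and 3 of 5 Ki67-negative libraries and Myc in the rest. No test was run on the shares, which follow from the 3 levels.

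**Figure D4:**
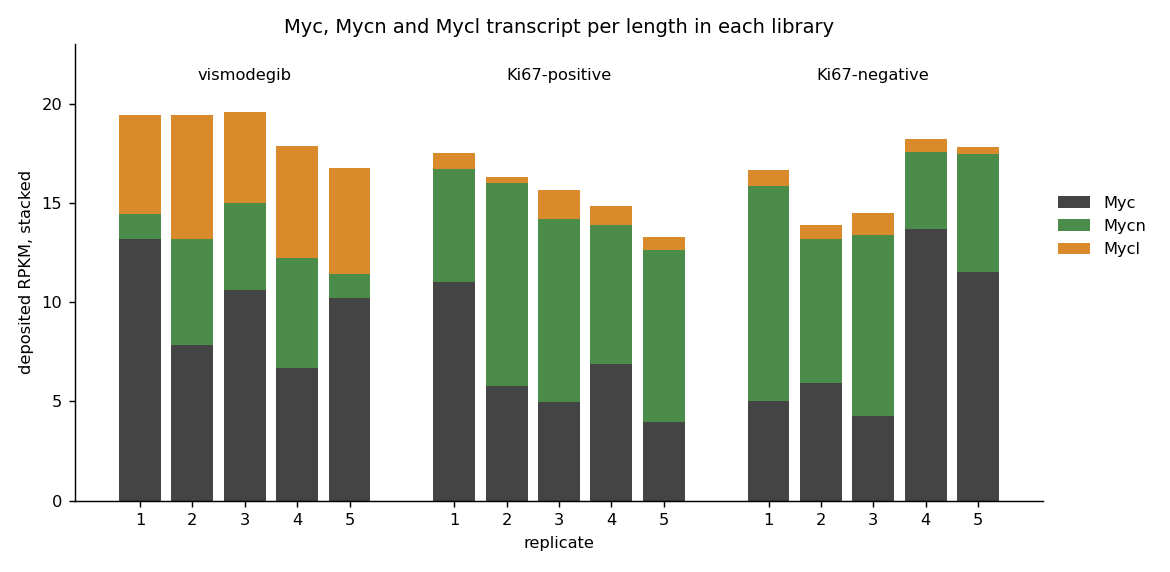
Deposited RPKM of Myc, Mycn and Mycl stacked for each library (vertical axis from 0, replicates 1 to 5 within each group). Total height lies between 13.3 and 19.6 RPKM everywhere, and the Mycl segment makes up 23.4 to 32.1% of the column after vismodegib and at most 9.25% in untreated libraries.

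Max, the obligate partner, was the most even of the 8. It ranged from 114 to 139 CPM after vismodegib, from 111 to 133 CPM in the Ki67-positive and from 91.6 to 130 CPM in the Ki67-negative group, and all groups overlapped. The log2 fold change was 0.07 against Ki67-positive nests (95% interval −0.18 to 0.33, edgeR adjusted p = 0.699) and 0.14 against Ki67-negative nests (−0.12 to 0.4, edgeR adjusted p = 0.387). Per length, Max had the highest mean of the members in every group (13.8, 13.3 and 12.8 RPKM). The ratio of Max RPKM to the summed RPKM of Myc, Mycn and Mycl was 0.666 to 0.831 after vismodegib, 0.772 to 0.974 in Ki67-positive and 0.594 to 1.04 in Ki67-negative libraries, with overlap throughout.

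Mxi1, an Mxd-family repressor, was modestly higher after vismodegib. Its levels were 97.0, 117, 95.2, 137 and 128 CPM in vismodegib replicates 1 to 5, 79.5, 82.3, 115, 69.9 and 83.7 CPM in Ki67-positive replicates and 100, 83.3, 85.2, 75.2 and 81.2 CPM in Ki67-negative replicates. In each untreated group 1 library reached into the vismodegib range. The log2 fold change against Ki67-negative nests was 0.43 (95% interval 0.11 to 0.76, edgeR adjusted p = 0.0346), a 1.35-fold rise. Against Ki67-positive nests it was 0.41 (0.09 to 0.74) and just missed the threshold (edgeR adjusted p = 0.0501). Both sit at the edge of the threshold. The call against Ki67-negative nests was lost without vismodegib replicate 2, 4 or 5 (edgeR adjusted p = 0.0534, 0.0854 and 0.0793) and without Ki67-negative replicate 2, 3, 4 or 5 (edgeR adjusted p = 0.0608, 0.0567, 0.0678 and 0.0561). The value against Ki67-positive nests was called without Ki67-positive replicate 3 (0.54, edgeR adjusted p = 0.0107), without vismodegib replicate 1 or 3 (edgeR adjusted p = 0.0392 and 0.0388), and without Ki67-negative replicate 1, 4 or 5, which are outside this comparison but share its fit (edgeR adjusted p = 0.0487, 0.0478 and 0.0436).

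The other repressors were not called in any comparison. Mxd1 was 60.1 to 98.6 CPM after vismodegib, 40.7 to 70.7 CPM in the positive group and 51.5 to 128 CPM in the negative group, where replicates 4 and 5 held the highest levels, as they did for Myc. Its log2 fold change was 0.51 against Ki67-positive (edgeR adjusted p = 0.119) and 0.08 against Ki67-negative nests (edgeR adjusted p = 0.825). Mxd4, with few reads at 82 to 190 per library, was 11.8 to 19.4, 12.9 to 21.8 and 16.2 to 26.9 CPM in the 3 groups. Its log2 fold changes were −0.27 and −0.37 (edgeR adjusted p = 0.401 and 0.205). Mnt, the repressor that is present in resting and dividing cells alike, was 28.6 to 42.7, 34.0 to 49.2 and 23.3 to 39.7 CPM, with log2 fold changes of −0.16 and 0.16 (edgeR adjusted p = 0.534 and 0.508). The 95% intervals reach 1.03 for Mxd1 against Ki67-positive nests and −0.84 for Mxd4 against Ki67-negative nests. Changes of that size are thus not set aside for them. In the vismodegib comparisons the intervals of Mnt stay between −0.54 and 0.54.

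Untreated Ki67-negative and Ki67-positive nests were not told apart by any of the 8 genes. Among all genes 0.174% were called in this comparison, 30 in number and each of them lower in Ki67-negative nests. No member was called by edgeR, by DESeq2 or by limma voom, and none had an unadjusted p under 0.05. No member's groups were apart, against 1.17% of all genes. Mycn differed by −0.15 (95% interval −1.0 to 0.69, edgeR adjusted p = 0.965), Myc by 0.3 (−0.42 to 1.02, edgeR adjusted p = 0.908) and Mycl by −0.2 (−0.9 to 0.5, edgeR adjusted p = 0.94) on the log2 scale. Max differed by −0.07 (−0.32 to 0.19), Mxd1 by 0.43 (−0.08 to 0.95), Mxd4 by 0.1, Mxi1 by −0.02 and Mnt by −0.32 (edgeR adjusted p = 0.786 or higher for these 5). Ki67-negative libraries held fewer transcripts of 8 proliferation markers (summed 337 to 669 CPM, against 932 to 1790 CPM), which the label itself selects.

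**Figure D5:**
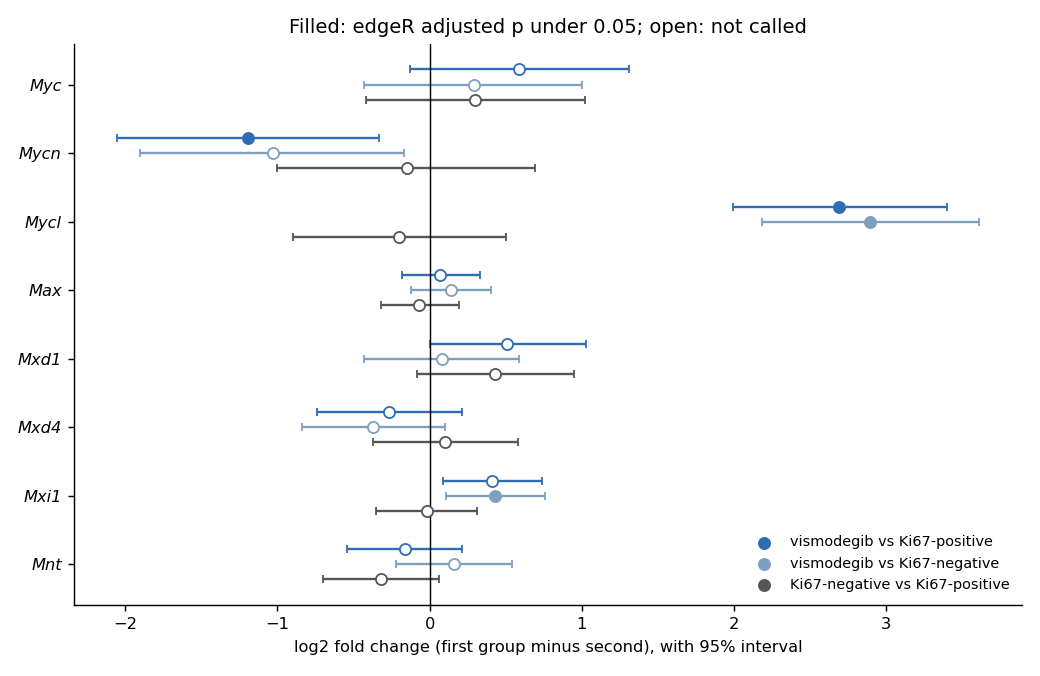
Log2 fold changes of the 8 genes (horizontal axis, first group minus the second named) with 95% intervals for the 3 comparisons, where filled points had an edgeR adjusted p under 0.05. Mycl stands at 2.69 and 2.89, Mycn at −1.19 and −1.03, and no member is filled between the untreated groups.

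Order by length-corrected level shows where the members stand within a group. After vismodegib the mean RPKM ran from Max (13.8) through Myc (9.71), Mycl (5.36), Mxi1 (4.13), Mycn (3.54), Mxd4 (3.53) and Mxd1 (3.34) to Mnt (1.47). In Ki67-positive nests it ran from Max (13.3) through Mycn (8.16), Myc (6.52), Mxd4 (4.28), Mxi1 (3.13), Mxd1 (2.36) and Mnt (1.67) to Mycl (0.826), and in Ki67-negative nests from Max (12.8) through Myc (8.08), Mycn (7.38), Mxd4 (4.62), Mxd1 (3.21), Mxi1 (3.11) and Mnt (1.34) to Mycl (0.737). Mycl was thus last in both untreated groups and held the third place after vismodegib. Neighbours with ranges apart were Myc over Mycl and Mxd1 over Mnt after vismodegib, Max over Mycn in Ki67-positive nests and Mxi1 over Mnt in Ki67-negative nests. All other neighbours overlapped.

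Genes whose log2 CPM followed a member most closely over the 15 libraries, among 11576 genes, were taken as a description without a test, since libraries share group, depth and cell makeup. For Mycl they were Rnf144b, a ubiquitin ligase (r 0.99, and 0.9 for deviations from the group means), Ntrk2, the receptor TrkB (0.98 and 0.88), and Itm2b (0.97 and 0.78). For Mycn they were Pds5b, a cohesin regulator (0.94 and 0.91), Sh3bp4 (0.93 and 0.93) and Ptch1 (0.93 and 0.95). For Myc they were Atxn1 (0.9 and 0.89), the platelet phosphofructokinase Pfkp (0.87 and 0.86) and Nfkbiz (0.86 and 0.82). For Mxi1 they were Gid4 (0.88 and 0.74), Zfp704 (0.85 and 0.71) and Tulp4 (0.85 and 0.72), and for Mxd1 Map2k4 (0.87 and 0.83), Sos2 (0.86 and 0.82) and Cxadr (0.86 and 0.88). Max came with Zcchc3 (0.84), Mxd4 with Pram1 (0.8), Depdc5 (0.77) and Tspan4 (0.76), and Mnt with Rusf1 (0.83) and Pak4 (0.82). A gene without a symbol stood first for Max, and another for Mnt.

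Counts for the lists that follow are to be read against the 26.0% and 31.9% of all genes called against Ki67-positive and Ki67-negative nests, and none of the lists was tested as a set. Beyond the 8 members, the wider Max and Mlx network (Mxd3, Mga, Mlx, Mlxip and Mlxipl) held 0 of 5 genes called against Ki67-positive nests by edgeR, and none of the 5 had an unadjusted p under 0.05. Against Ki67-negative nests 1 of 5 was called: Mlxip (MondoA), a glucose-sensing partner of Mlx, averaged 137 ± 23.5 CPM in vismodegib and 238 ± 68 CPM in Ki67-negative nests (SD, n = 5 each). Its log2 fold change was −0.80 (edgeR adjusted p = 0.00347). Mga was 530 to 589 CPM in the group means, Mlx 16.6 to 22.6 CPM, Mxd3 4.08 to 8.51 CPM and Mlxipl 2.37 to 3.27 CPM.

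Of 21 Myc cofactors and co-repressors, 1 was called against Ki67-positive nests and 4 against Ki67-negative nests, each of them lower, with list medians of −0.05 and −0.21. Both counts are smaller shares than among all genes. Trrap, the scaffold of the acetyltransferase complexes that Myc recruits, fell in both (log2 fold change −0.59 and −0.75, edgeR adjusted p = 0.0221 and 0.00404). Bin1, a Myc-interacting adaptor (−0.97, edgeR adjusted p = 0.0116), Zbtb17, which encodes Miz1, the factor through which Myc represses genes (−0.58, edgeR adjusted p = 0.0189), and the chromatin remodelling subunit Bptf (−0.33, edgeR adjusted p = 0.0374) fell against Ki67-negative nests. Of 20 regulators of Myc protein stability, 2 rose and 2 fell against Ki67-positive and 3 rose and 2 fell against Ki67-negative nests, again smaller shares than among all genes. The ubiquitin ligase subunit Fbxo32 rose in both (log2 fold change 1.24 and 1.08, edgeR adjusted p = 5.23e-05 and 0.000162), and Usp28, a deubiquitinase that protects Myc, fell in both (−0.62 and −0.64, edgeR adjusted p = 0.0173 and 0.012). Usp7 rose by 0.28 in each, Trim32 fell against Ki67-positive nests (−0.62), and against Ki67-negative nests Stub1 rose (0.58).

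Fewer of the known Myc targets were called, as a share, than of all genes (26.0% and 31.9%). Of 35 nucleolar and ribosome assembly targets, 2 rose and 2 fell against Ki67-positive nests and 2 rose and 4 fell against Ki67-negative nests, with list medians of −0.05 and 0.08. Tcof1, which promotes ribosomal RNA transcription, fell in both (log2 fold change −0.95 and −1.11, edgeR adjusted p = 0.00158 and 0.000388), as did Rcl1 (−0.52 and −0.66). The nucleolar chaperone Npm1 (0.74 and 0.81) and Ncl (0.42 and 0.48) rose in both, although reads of Npm1 and Ncl can be lost to near-identical copies. Of 40 targets in metabolism, translation and cell cycle entry, Dusp2 was too low to test. Of the other 39, 3 rose and 4 fell against Ki67-positive nests and 5 rose and 4 fell against Ki67-negative nests, with list medians of 0.09 and 0.19.

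Within that second list of targets, genes changed in both directions. Ccnd2, which encodes cyclin D2, was 413 ± 97.9 CPM after vismodegib, 125 ± 45.6 CPM in Ki67-positive and 98.6 ± 37.3 CPM in Ki67-negative nests (SD, n = 5 each), and its log2 fold changes were 1.73 and 2.07 (edgeR adjusted p = 0.000121 and 2.27e-05). Cad, the enzyme that starts pyrimidine synthesis and a textbook Myc target, was 29.9 ± 8.61, 81.8 ± 16 and 73.6 ± 24.5 CPM, a log2 fold change of −1.45 and −1.29 (edgeR adjusted p = 0.000135 and 0.000332). Neither gene's vismodegib libraries overlapped the untreated ones. Hk2, a hexokinase of glycolysis (−1.58 and −1.51), and the telomerase gene Tert (−1.25 and −0.95) also fell in both comparisons, and the mitochondrial chaperonin Hspe1 rose (0.85 and 1.41).

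Genes that Myc is known to repress with Miz1 or in related ways included risers and fallers. Of 14, 3 rose and 5 fell against Ki67-positive nests, beside 12.6% and 13.4% of all genes. Against Ki67-negative nests 2 rose and 4 fell, beside 15.4% and 16.5%. These are larger shares than among all genes, except for the risers against Ki67-negative nests, and the list was not tested as a set. List medians were −0.26 and −0.09. Cdkn2b, which encodes the cell cycle inhibitor p15, reached 5.06 to 10.2 CPM in vismodegib libraries and 23.9 to 74.6 CPM in untreated ones, a log2 fold change of −2.71 and −2.87 (edgeR adjusted p = 1.12e-06 and 5.75e-07). Gadd45a, a stress-response gene, fell too (−1.94 and −1.95). Cebpa, a differentiation factor of the epidermis, rose (log2 fold change 1.46 and 1.86, edgeR adjusted p = 0.000269 and 2.89e-05), as did the basal integrin Itga6 (0.7 and 0.78).

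Wnt and ERK signalling are both known to act on Myc transcription or Myc protein. Of 13 genes pooled from both pathways, 9 fell and 1 rose against Ki67-positive nests. Against Ki67-negative nests 10 fell and 1 rose, and the list medians were −1.93 and −1.66. Fallers from the Wnt part against Ki67-positive nests were the transcription factors Lef1, Tcf7l1 and Tcf7l2. Tcf7, Lgr5 and Nkd1 were not called there. The other fallers were the ERK-related genes Dusp6, Etv4, Etv5, Egr1, Spry2 and Spry4. The riser was Axin2, a feedback target of Wnt signalling (log2 fold change 2.22 and 2.09, edgeR adjusted p = 3.24e-06 and 4.95e-06). Etv5, a target of ERK signalling, was 7.8 CPM on average after vismodegib and fell by 3.22 and 3.35 on the log2 scale (edgeR adjusted p = 6.42e-08 and 3.95e-08), and Lef1, a nuclear partner of beta-catenin, fell by 1.93 and 2.34.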

How the data were processed

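Polyadenylated RNA from 15 laser-captured samples was sequenced. Reads were aligned with GSNAP to GRCm38, per the submitters' processing notes, and the authors counted unique alignments for each gene model, as the file headers say. Strand use, the aligner version and the annotation release were not given in the sources used here. The deposited counts were tested. The deposited RPKM values, which the file headers describe as divided by a library size factor, were used only for levels between genes. The 36528 identifiers were named through NCBI tables (31049 matched).

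Members and lists were chosen with earlier results of these data known. One fit over the 15 libraries used edgeR 4.0.16 (R 4.3.3) with TMM scaling, filterByExpr (minimum count 10) and the robust quasi-likelihood F test, two-sided, with Benjamini-Hochberg adjustment over 17282 genes and calls at 0.05. Standard errors have 12 residual degrees of freedom, from which 95% intervals were taken. Replicate numbers follow accession order. Named beyond the members are up to 4 called genes with the smallest adjusted p per list and any member of lists of 8 or fewer. The Wnt and ERK list is also named in full against Ki67-positive nests. Alternatives were RLE factors, DESeq2 1.42.0, limma voom 3.58.1, other filters, fewer samples, a covariate for Xist over Ddx3y and a fit without robust estimation. They were run for the members and the counts of calls, not for listed genes. Some genes that the rule names are not reported here.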

Additional observations from a re-analysis of the deposited data

How the results depend on the processing

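Mycl was called higher in both vismodegib comparisons under all 23 alternatives, with log2 fold changes of 2.49 to 3 against Ki67-positive and 2.72 to 3.11 against Ki67-negative nests. Counts of called members rest on Mycn, Mxi1 and Mxd1, which lie near the threshold. Members called higher against Ki67-positive nests numbered 1, and 2 with RLE factors, DESeq2, limma voom, the stricter filter, only the groups compared or the Xist covariate (1 to 2 leaving out 1 library). Members called lower there numbered 1, and 0 without the low-count filter, with only the groups compared or with the Xist covariate (0 to 1 leaving out 1 library), where Mycn had an edgeR adjusted p of 0.0883, 0.0543 and 0.0665. Against Ki67-negative nests, members called higher numbered 2 (1 to 2 leaving out 1 library), and members called lower 0, but 1 (Mycn) with DESeq2, limma voom, the stricter filter or the non-robust fit (0 to 1 leaving out 1 library). Genes called between the untreated groups numbered 30, against 86 with DESeq2, 15 with limma voom and 0 with only these groups (0 to 43 leaving out 1 library, 0 without Ki67-negative replicate 3, 4 or 5 or Ki67-positive replicate 4). Causes were not tested. The correlation of Myc with Mycn stayed at −0.88 with deposited RPKM, an alternative chosen after seeing the data. No paired analysis was possible because the labels give no replicate numbers. Mxd4 and, in untreated nests, Mycl have the fewest reads.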
